A study of Mus musculus with 6 samples.

Results

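Binding of C/EBPα, IRF8 and JUNB was examined at the loci of 10 myeloid C-type lectin genes, Clec4d, Clec4e, Clec4n, Clec4a1, Clec4a2, Clec4a3, Clec7a, Clec5a, Clec12a and Clec10a, in mouse bone marrow-derived macrophages (BMDMs, primary macrophages grown from marrow). The members are all peaks whose deposited gene name, the gene with the nearest transcription start site (TSS), was one of these 10 genes. They were 137 of the 134964 peaks in the 6 chromatin immunoprecipitation sequencing (ChIP-seq) lists, and they merged into 45 of 60856 regions when overlapping peaks of all lists were joined. All 10 genes had at least 1 C/EBPα peak and 1 IRF8 peak in each condition. Over the 14930 genes named in any list, 62.5% had a C/EBPα peak in control and 62.4% after IL-4. For IRF8 these shares were 81.5% and 89.1%. The marrow came from wild-type C57BL/6 mice aged 8 to 12 weeks, and it was grown into macrophages over 6 days in L929 supernatant, a source of M-CSF. The control groups (1 sample each of C/EBPα, IRF8 and JUNB) received no IL-4, and the matching IL-4 groups (1 sample each) received 20 ng/ml IL-4 for 1 h on the same background. With 1 sample per factor and condition there are no replicates, so every difference below is between a pair of samples and has no test.

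C-type lectin receptors of myeloid cells recognise sugars and lipids of microbes and damaged cells. Several of them (Dectin-2, encoded by Clec4n, Mincle, encoded by Clec4e, MCL, encoded by Clec4d, and Dectin-1, encoded by Clec7a) activate the kinase SYK and the adaptor CARD9, whereas others, such as DCIR, encoded by Clec4a2, and the receptor encoded by Clec12a, carry inhibitory motifs. C/EBPα and IRF8 are transcription factors that macrophages use to establish their enhancers, JUNB is a subunit of AP-1, and IL-4 signals through STAT6 to polarise macrophages toward the alternative state. The study treats Clec4d as a gene repressed by IL-4. The comparison asks whether the 3 factors leave or join its locus and those of the other members soon after the cytokine. Expression was not examined here, so the members are not taken as a set of repressed genes.

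Peak score is the number deposited with each peak. Its unit is not stated, and its values look like a significance on the −log10 scale, so it rises with sequencing depth, which is unknown. A control peak was called lost when no IL-4 peak of the same factor overlapped it by at least 1 bp, and an IL-4 peak was called gained when no control peak overlapped it. Score changes are ratios of the IL-4 score to the control score at shared peaks, and a change was called at 1.5 times either way. Across all peaks the JUNB lists were the shortest and differed most, with 3940 peaks in control and 2325 after IL-4, against 24486 and 24612 for C/EBPα and 37525 and 42076 for IRF8. As a check of the cell type, all 8 macrophage marker genes examined, Csf1r and Spi1 among them, had peaks in the C/EBPα and IRF8 lists. Over all genes named in any list, 62.5% had a C/EBPα and 81.5% an IRF8 control peak, so this check is weak. The IRF8 control score reached 176 at the macrophage marker Fcgr1 and 121 at the dendritic cell marker Xcr1. Of 3 marker genes each, at most 2 had a peak in any list for B cells, 1 for T cells, 2 for neutrophils and 2 for dendritic cells, and a peak at a gene does not show its expression.

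The regions on which the results below turn are printed first, so that their letters can be read beside the scores. Each window is 200 bases of GRCm38 (the assembly named mm10) centred on the stretch that the region's peaks share. Capitals mark matches on either strand to a C/EBP site (TTGCNNAA), an AP-1 site (TGANTCA), a PU.1 site (GAGGAAG), an ETS-IRF composite (GGAA, any 2 bases, GAAA), an interferon-response type site (GAAA, 2 bases, GAAA), a STAT site (TTCNNNGAA) or a STAT6-type site (TTC, 4 bases, GAA). The first 3 windows are the Clec4d regions with peaks of all 3 factors.
Clec4d, 9.2 kb upstream, chr6:123252909-123253108, + strand: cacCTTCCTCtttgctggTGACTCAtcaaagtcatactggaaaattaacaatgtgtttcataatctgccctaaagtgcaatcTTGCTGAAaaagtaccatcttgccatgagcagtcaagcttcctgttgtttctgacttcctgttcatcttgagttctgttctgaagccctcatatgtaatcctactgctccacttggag
Clec4d, 1.8 kb upstream, chr6:123260293-123260492, + strand: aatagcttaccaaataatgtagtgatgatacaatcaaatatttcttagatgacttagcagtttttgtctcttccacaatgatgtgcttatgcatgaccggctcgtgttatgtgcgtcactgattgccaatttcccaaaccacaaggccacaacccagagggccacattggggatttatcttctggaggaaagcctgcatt
Clec4d, intron 2, chr6:123265952-123266151, + strand: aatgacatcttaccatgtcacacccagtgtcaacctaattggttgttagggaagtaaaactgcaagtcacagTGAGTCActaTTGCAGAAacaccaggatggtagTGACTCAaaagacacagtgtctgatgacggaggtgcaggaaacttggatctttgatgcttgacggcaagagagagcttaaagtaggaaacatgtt
Clec12a promoter, which held the highest JUNB score in control, chr6:129350031-129350230, + strand: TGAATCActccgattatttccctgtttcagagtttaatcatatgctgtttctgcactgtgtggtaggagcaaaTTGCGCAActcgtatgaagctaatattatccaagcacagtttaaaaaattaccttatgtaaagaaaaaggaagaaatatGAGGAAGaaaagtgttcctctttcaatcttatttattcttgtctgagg
Clec7a, intron 1, the highest score of any member, chr6:129471486-129471685, + strand: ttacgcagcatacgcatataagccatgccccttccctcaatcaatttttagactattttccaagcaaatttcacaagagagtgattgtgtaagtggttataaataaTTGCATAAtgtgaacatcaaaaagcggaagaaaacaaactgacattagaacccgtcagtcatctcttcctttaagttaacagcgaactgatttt
Clec4a2, 6.2 kb upstream, the largest rise of C/EBPα and of IRF8, chr6:123116362-123116561, + strand: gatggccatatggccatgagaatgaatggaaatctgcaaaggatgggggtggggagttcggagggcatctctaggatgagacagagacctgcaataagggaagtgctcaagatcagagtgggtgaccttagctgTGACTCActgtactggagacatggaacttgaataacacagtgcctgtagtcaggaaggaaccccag
Clec10a, 22.8 kb downstream, the largest rise of JUNB, chr11:70189329-70189528, + strand: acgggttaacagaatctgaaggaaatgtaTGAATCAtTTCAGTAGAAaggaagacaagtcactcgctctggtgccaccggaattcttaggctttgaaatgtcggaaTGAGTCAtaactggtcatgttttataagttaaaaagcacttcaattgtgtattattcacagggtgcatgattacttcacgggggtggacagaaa
The window 9.2 kb upstream of Clec4d held 1 PU.1, 1 AP-1 and 1 C/EBP site, and the intron 2 window held 2 AP-1 sites and 1 C/EBP site within a short distance of each other. The window 1.8 kb upstream of Clec4d, where all 3 factors had a control peak, held none of these letters. It left out much of the upstream part of the wider C/EBPα control peak (chr6:123260059-123260530), which was not scanned here. A match is a description of letters and not of a bound site.

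In total the 10 genes had 33 C/EBPα peaks in control and 30 after IL-4, 31 and 29 IRF8 peaks, and 8 and 6 JUNB peaks. The IRF8 totals were 33 and 35 when peaks within 10000 bp of the gene bodies were taken in place of the deposited gene names, so the direction of that small difference depends on the assignment. Of the C/EBPα control peaks 26 of 33 (78.8%, Wilson 95% interval 62.2 to 89.3, counting error only) overlapped an IL-4 peak, so 7 (21.2%) were lost, while 21.4% were lost over all C/EBPα peaks. For IL-4 peaks, 5 of 30 (16.7%) were gained, beside 22% over all C/EBPα peaks. Both shares for the lectin genes were close to or below those of the whole list.
For IRF8, 26 of 31 control peaks were kept (83.9%, 67.4 to 92.9) and 5 (16.1%) were lost, where the background was 21.4%. Of the IL-4 peaks 3 of 29 (10.3%) were gained, where the background was 30.4%. Of those 29, 21 scored at or above the list median, where 0 were gained, beside 6.73% of all such peaks. Below the median 3 of 8 (37.5%) were gained, beside 54.2%. For JUNB, 5 of 8 control peaks were kept (62.5%, 30.6 to 86.3) and 3 (37.5%) were lost, beside 64.2% over the list, and 1 of 6 (16.7%) was gained, beside 39.2%. The JUNB intervals are wide at these counts, and no factor lost more of its lectin peaks than of its peaks in general.

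**Figure D1:**
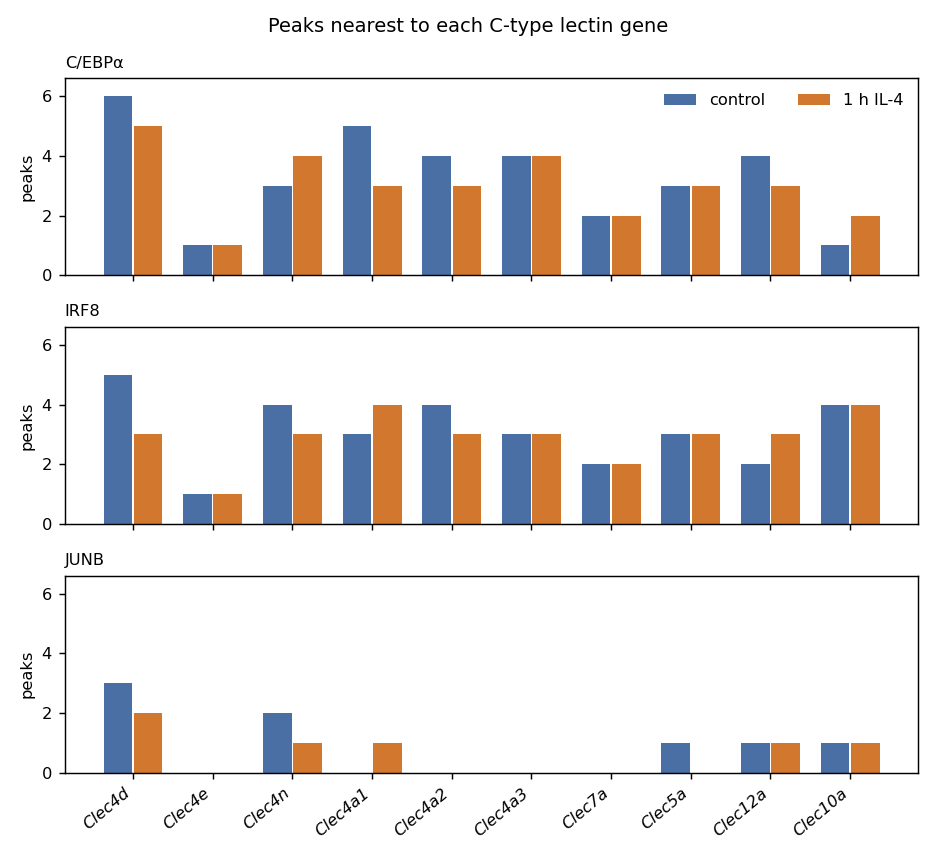
Number of peaks (vertical axis) nearest to each of the 10 C-type lectin genes in the control (blue) and IL-4 (orange) list of each factor, 1 sample per bar. Clec4d had the most C/EBPα (6 and 5) and JUNB (3 and 2) peaks, and Clec4e, Clec4a2, Clec4a3 and Clec7a had no JUNB peak.

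The peaks that came or went had low scores. All 7 lost C/EBPα peaks scored between 3.75 and 7.78, under the median of 11.2 in their list. Of the 5 lost IRF8 peaks 4 were under the list median of 10.3, and of the 3 lost JUNB peaks 2 were under 7.88. Among member peaks below the list median 41.2% of the C/EBPα control peaks were lost, beside 39.9% of all such peaks, and for IRF8 30.8% beside 39.6%. At or above the median, 0 of 16 C/EBPα and 1 of 18 IRF8 control peaks of the lectin genes were lost, beside 2.80% and 3.28% over the lists. The highest-scoring gained peak was a C/EBPα peak of 15.1 upstream of Clec5a.

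At shared peaks the scores moved in both directions. Among 25 C/EBPα pairs 4 rose at least 1.5 times (16.0%, background 17.7%) and 5 fell as much (20.0%, background 17.8%). Among 26 IRF8 pairs 5 rose (19.2%, background 23.6%) and 3 fell (11.5%, background 17.5%). Among 5 JUNB pairs 1 rose (20.0%, background 9.6%) and 3 fell (background 47.9%). The median log2 ratio of the C/EBPα pairs was -0.12, that of the IRF8 pairs 0.27 and that of the JUNB pairs -1.07, while over all shared peaks these medians were -0.0038, 0.083 and -0.54. Of the 5 JUNB pairs 3 were lower and 2 higher after IL-4, and their median log2 ratio was -0.48 with scores of at least 5 or a reciprocal overlap of 50%.

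**Figure D2:**
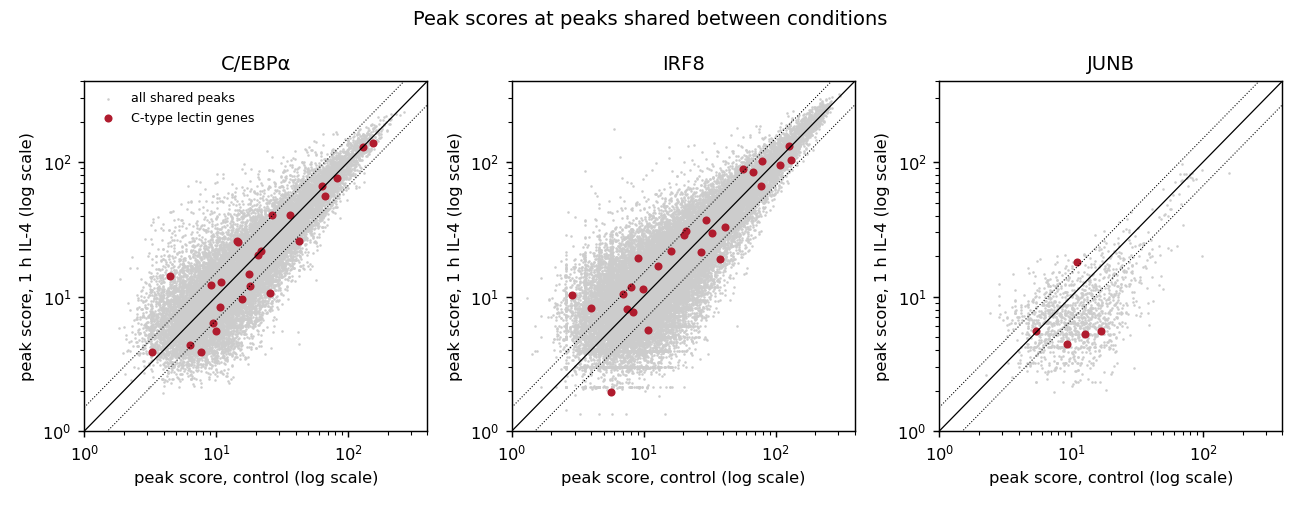
Peak score after 1 h IL-4 against peak score in control, both on log scales, for peaks shared between conditions, with all shared peaks in grey and those of the 10 C-type lectin genes in red. The solid line marks equal scores and the dotted lines 1.5 times either way. Most lectin peaks lie between the dotted lines for C/EBPα and IRF8, and 3 of 5 lie below them for JUNB.

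Clec4d, which encodes MCL, a partner of Mincle, lies at chr6:123262111-123275265 on the + strand and had 7 regions and 24 peaks over the 6 lists, the most of any member. Of its control peaks, 1 of 6 for C/EBPα, 2 of 5 for IRF8 and 1 of 3 for JUNB were lost, with 0 gained. Over all control peaks of these factors 21.4%, 21.4% and 64.2% were lost, and each Clec4d share rests on at most 6 peaks. The strongest region lay 9162 bp upstream of the TSS (chr6:123252654-123253206, intergenic). Its C/EBPα score was 63.6 in control and 66.3 after IL-4, its IRF8 score 16.3 and 21.6, and its JUNB score 12.7 and 5.26. Thus C/EBPα and IRF8 had ratios of 1.04 and 1.33 there, whereas the JUNB score was 2.41 times lower. A JUNB fall is common in these lists, since 47.9% of all shared JUNB peaks fell at least 1.5 times.
At 1813 bp upstream (chr6:123260029-123260586, intergenic) the C/EBPα score was 25.6 in control and 10.7 after IL-4, a ratio of 0.417. IRF8 moved the other way, from 3.96 to 8.29, a ratio of 2.09. JUNB had a control peak of 6.53 and no IL-4 peak. In intron 2, at 3953 bp downstream (chr6:123265815-123266275, within a LINE repeat), C/EBPα went from 14.3 to 25.8, IRF8 from 41.2 to 32.9 and JUNB from 5.44 to 5.52. The C/EBPα scores of these last regions changed in opposite directions, 2.40 times lower upstream and 1.802 times higher in the intron.
The Clec4d promoter (chr6:123261874-123262236) had C/EBPα alone, at 15.7 in control and 9.55 after IL-4. In exon 3 (chr6:123266991-123267215), C/EBPα scored 10.8 and 12.8 and the IRF8 control peak of 5.59 was lost. The other lost peaks were C/EBPα at 8.2 kb upstream with a score of 6.29 and IRF8 in intron 1 with a score of 10.9. IRF8 was the one factor that had a lost peak of Clec4d above its list median.

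**Figure D3:**
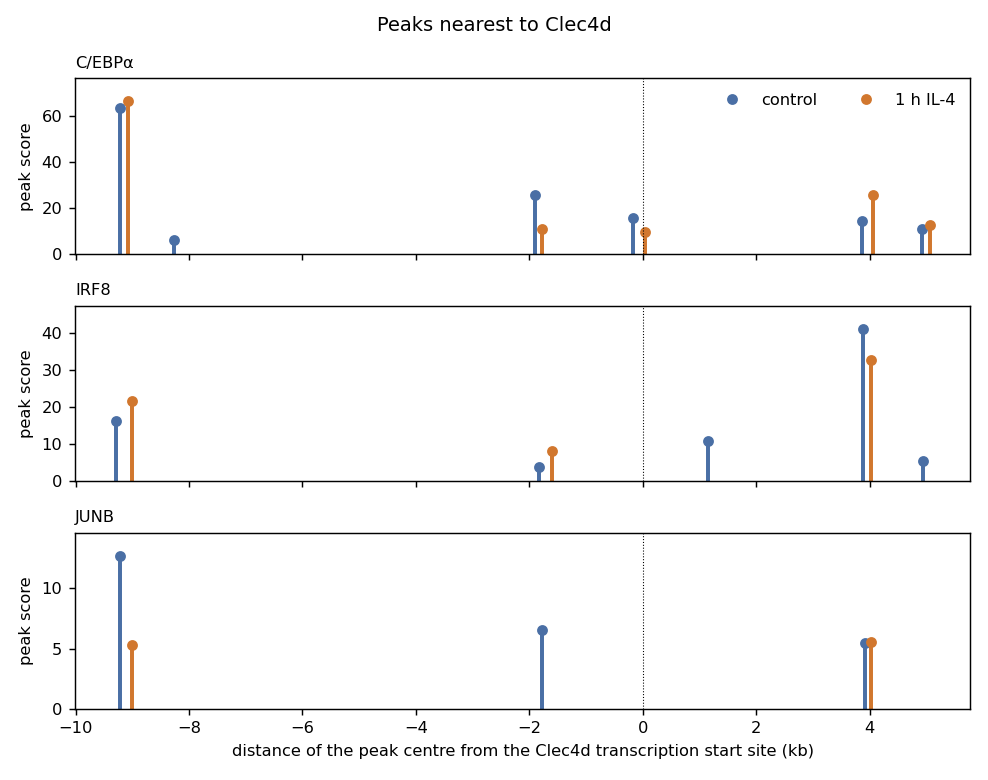
Peak scores (vertical axis) at Clec4d against the distance of each peak centre from the TSS in kb (negative, upstream) for the 3 factors, control in blue and 1 h IL-4 in orange, 1 sample per point. C/EBPα and IRF8 kept their peaks at about -9 kb with scores of 63.6 and 66.3 and of 16.3 and 21.6, whereas the JUNB score there was 12.7 in control and 5.26 after IL-4. Of all shared JUNB peaks 47.9% fell at least 1.5 times.

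An enhancer RNA was assayed at this upstream region in the study. The primers below matched GRCm38 chr6 around the gene cluster once, at chr6:123253177-123253320 (144 bp).
Clec4d -9 kb forward: tagtggtccctgggcaagta
Clec4d -9 kb reverse: tggaaagaagagaaatggagggg
The amplicon shares its first 30 bp with the merged region. It overlapped the IL-4 peak of C/EBPα by 3 bp and that of IRF8 by 30 bp, and the control peaks of all 3 factors and the JUNB IL-4 peak by 0 bp, so the assayed RNA lies at the downstream flank of the bound stretch.

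Clec4e and Clec4n, which encode the activating receptors Mincle and Dectin-2, lie on either side of Clec4d. Clec4e had a single region, its promoter (chr6:123289692-123290248), with C/EBPα scores of 82.1 in control and 75.7 after IL-4 and IRF8 scores of 33.1 and 29.8. Both ratios, 0.923 and 0.902, were near 1, and nothing was gained or lost.
Clec4n had 5 regions. In intron 3, at 14547 bp downstream of the TSS (chr6:123244115-123244669), IRF8 scored 130 in control and 104 after IL-4, the highest IRF8 control score of any member. C/EBPα rose there from 14.7 to 25.3 while JUNB went from 9.29 to 4.44. The C/EBPα peaks of this region were annotated to exon 4 and its IRF8 peaks to intron 3. At 2135 bp upstream (chr6:123227327-123228091), C/EBPα went from 42.8 to 26.0 and IRF8 from 77.1 to 66.8, and a JUNB peak of 4.71 was lost. The promoter (chr6:123229629-123229942) had C/EBPα scores of 18.0 and 12.03 and IRF8 scores of 6.92 and 10.4, and a separate C/EBPα promoter peak of 5.89 (chr6:123229343-123229535) was gained. Clec4n also lost an IRF8 peak of 5.60 at 22.2 kb upstream. The C/EBPα score of Clec4n was thus 1.64 times lower just upstream of its promoter and 1.72 times higher inside the gene. Clec4d had the same directions at 1.8 kb upstream and in intron 2, but its strongest upstream region, at 9.2 kb, had a C/EBPα ratio of 1.04.

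The Clec4a genes encode DCIR and its relatives, and 3 members fall in this group. IRF8 scores exceeded those of C/EBPα at all 3 of their promoters. At the Clec4a1 promoter (chr6:122921302-122921840) IRF8 scored 108 in control and 94.3 after IL-4 and C/EBPα 36.4 and 40.1, and a JUNB peak with a score of 2.06 appeared after IL-4, the one JUNB peak gained at any member. At Clec4a2 (chr6:123123087-123123751) IRF8 went from 67.0 to 84.8 and C/EBPα from 17.9 to 14.7. At Clec4a3 (chr6:122952135-122952820) IRF8 went from 20.9 to 30.9 and C/EBPα from 10.7 to 8.35. The highest IRF8 score of Clec4a3 after IL-4 lay instead 5691 bp upstream (chr6:122946484-122947164), at 29.6 in control and 37.4 after IL-4, where C/EBPα went from 7.62 to 3.88.
The largest rises were 6214 bp upstream of the Clec4a2 TSS used in the lists (chr6:123116346-123116766, within a LINE repeat). C/EBPα went from 4.44 to 14.1 there, 3.18 times higher, and IRF8 from 2.85 to 10.3, 3.60 times higher. Both control scores were low, and the printed window held 1 AP-1 site but no JUNB peak in either condition. At the end of Clec4a1 (chr6:122934652-122935295) C/EBPα went from 26.6 to 40.4 and IRF8 from 78.3 to 102. Clec4a1 lost 2 weak C/EBPα peaks in intron 1, of 4.34 and 6.98, and gained an IRF8 peak of 7.08 in intron 3, where C/EBPα scored 9.21 and 12.2.

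Clec7a encodes Dectin-1, the receptor for fungal beta-glucan, and had 2 regions with both C/EBPα and IRF8 and no JUNB peak. Intron 1 (chr6:129471128-129471894, 1138 bp from the TSS) carried the highest C/EBPα score of the 10 genes, 155 in control and 138 after IL-4, and IRF8 went from 37.7 to 19.1. The promoter (chr6:129472600-129473184) had the reverse order of the factors, with IRF8 rising from 57.0 to 88.0 and C/EBPα going from 10.01 to 5.53. IRF8 was therefore 1.98 times lower in the intron and 1.54 times higher at the promoter of the same gene. An ETS-IRF composite, in capitals in the 30 bases below, lay in the promoter region.
Clec7a promoter, chr6:129472826-129472855, + strand: gcccaaagcaGGAAATGAAAacgcgttgga

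Clec12a encodes an inhibitory receptor for uric acid crystals. Its promoter (chr6:129349626-129350410) was the one region where both C/EBPα and IRF8 scored above 100 in both conditions. C/EBPα scored 129 in control and 130 after IL-4 and IRF8 127 and 132, ratios of 1.01 and 1.04. JUNB fell from 16.9 to 5.58, 3.03 times lower, at its highest control peak of any member, where 47.9% of all shared JUNB peaks fell at least 1.5 times. The C/EBP site and the PU.1 site of the printed window lie in this promoter.
At 5668 bp upstream of the TSS used in the lists (chr6:129344326-129344677, in an LTR repeat) Clec12a lost a C/EBPα peak of 7.78 and gained an IRF8 peak of 5.20. This region lies inside the GENCODE gene. Both factors thus changed between presence and absence over the whole region, which no other lectin region showed. In intron 5 at 13.2 kb, C/EBPα scored 20.9 and 20.2 and IRF8 rose from 9.12 to 19.3.

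Clec5a encodes an activating receptor that pairs with the adaptor DAP12. Its strongest region lay 9196 bp upstream (chr6:40594817-40595461), with C/EBPα at 66.9 in control and 56.1 after IL-4 and IRF8 at 12.8 and 16.8. A JUNB peak of 10.8 was present in control only, the strongest JUNB peak lost at any member. At the promoter (chr6:40585583-40585989) IRF8 scored 8.24 and 7.62 and a C/EBPα peak of 3.75 was lost. The gained C/EBPα peak of 15.1 lay 2748 bp upstream (chr6:40588447-40588660), and its central window held 2 C/EBP sites. A further C/EBPα peak of 5.35 was lost 4142 bp upstream, where IRF8 scored 9.93 and 11.5. Another C/EBPα peak, of 3.35, was gained within the strongest region, beside the kept C/EBPα peak and the lost JUNB peak. The upstream regions of Clec5a lie outside its gene body and were annotated to intron 2 of another transcript.

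Clec10a, on chr11, encodes a galactose-type lectin of macrophages and had weak C/EBPα and IRF8 peaks but the highest JUNB score of any member. No C/EBPα or IRF8 peak of Clec10a scored above 11.7. Its promoter (chr11:70166333-70166704) had IRF8 alone, at 7.96 in control and 11.7 after IL-4. At 22787 bp downstream (chr11:70189305-70189629, 18471 bp past the end of the gene) JUNB rose from 11.1 to 18.03, the one JUNB score that rose at least 1.5 times at a lectin gene, and a C/EBPα peak of 6.37 was gained. That window held 2 AP-1 sites and 1 STAT6-type site. At 23.5 kb the IRF8 score went from 5.65 to 1.96, and 8.3 kb downstream an IRF8 peak of 9.41 was gained. At 18.7 kb C/EBPα scored 9.45 and 6.34 and an IRF8 peak of 4.06 was lost.

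**Figure D4:**
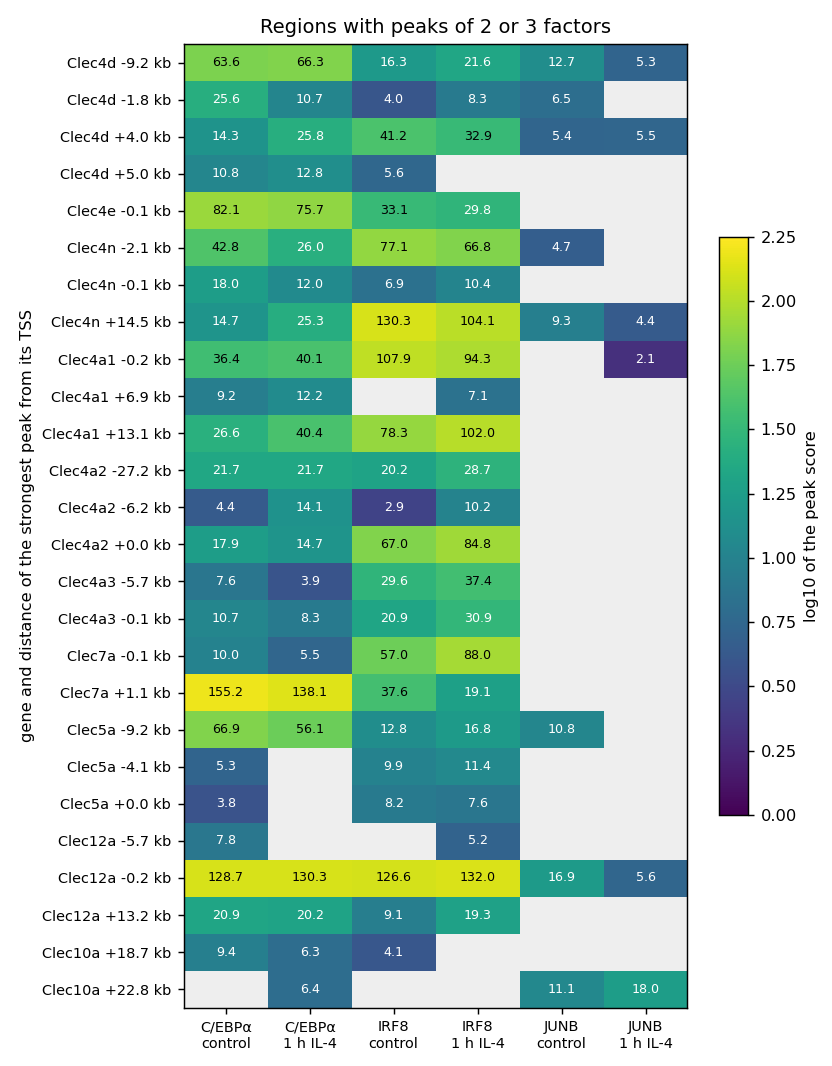
Peak scores of the 26 lectin gene regions with peaks of 2 or 3 factors (rows, gene and distance from its TSS in kb) in the 6 lists (columns), coloured by log10 of the score and grey where no peak was called. JUNB scores were between 2.06 and 18.03 in all rows where a peak was called, while C/EBPα and IRF8 reached 155 and 132.

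Regions were also counted by the factors that had a peak there in either condition. By this count C/EBPα and IRF8 both had peaks at 25 of the 45 lectin regions (55.6%), beside 30.7% of all regions. They include the region 5.7 kb upstream of Clec12a, where these factors did not have peaks in the same condition. All 3 factors had a peak in either condition at 8 regions (17.8%, Wilson 95% interval 9.29 to 31.3), beside 5.56%. The Clec4a1 promoter is among the 8 only through its JUNB peak of 2.06 after IL-4. In addition, 4 regions (8.89%) had a peak in all 6 lists, beside 1.63%. These were the Clec4d regions 9.2 kb upstream and in intron 2, the Clec4n intron 3 region and the Clec12a promoter. JUNB was seldom alone, since 7 of its 8 control regions and 5 of its 6 IL-4 regions also held both other factors in the same condition, beside 65.1% and 68.6% over all JUNB regions.
Lectin regions were also promoter-rich. Promoter peaks occurred at 11 of 45 regions (24.4%, 14.2 to 38.7), beside 9.25% of all regions, and 10 of 45 (22.2%, 12.5 to 36.3) had at least 1 peak annotated within a LINE repeat, beside 6.44%. In control, 9 of 10 genes had a C/EBPα promoter peak, all but Clec10a, and 9 of 10 had an IRF8 promoter peak, all but Clec4d. Over the 14930 genes named in any list the shares were 10.8% and 17.3%. Peaks of the lectin genes lay no farther than 27.2 kb from a TSS.
Counted as merged regions that hold a promoter peak of any list, the promoters with C/EBPα and IRF8 peaks in both conditions numbered 7, those of Clec4e, Clec4n, Clec4a1, Clec4a2, Clec4a3, Clec7a and Clec12a. At 4 of them the C/EBPα score was lower and the IRF8 score higher after IL-4 (57.1%), beside 28.0% of 608 such promoter regions in the genome. These 4 were Clec4n, Clec4a2, Clec4a3 and Clec7a. Changes of any size were counted here, without the 1.5 times call. Of the 4, only Clec7a passed 1.5 times for both factors, with ratios of 0.552 for C/EBPα and 1.54 for IRF8. Whatever the other factor did, C/EBPα was lower at 5 of 7 and IRF8 higher at 5 of 7, beside 44.7% and 64.5%.

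In the 200 bp centres of the JUNB peaks of lectin genes, TGACTCA was in 4 of 8 in control beside 47.6% of the list, and the wider TGANTCA in 6 of 8 beside 55.2%. The C/EBP letters were in 3 of those 8 beside 17.1%, and in 4 of 6 after IL-4 beside 14.8%. They were in 24.2% of the C/EBPα control peaks of lectin genes beside 34.3%, and in 22.6% of their IRF8 control peaks beside 13.9%, with like shares after IL-4 (23.3% beside 33.3% and 24.1% beside 12.7%). PU.1 letters were in 35.5% of IRF8 control peaks beside 27.5% and in 24.1% after IL-4 beside 25.7%. In C/EBPα peaks they were in 27.3% beside 21.8% in control and in 13.3% beside 20.8% after IL-4. Most of these shares rest on fewer than 10 lectin peaks with a match. In RefSeq promoter windows of GRCm38.p6, from 250 bases before to 50 after the start, 8 of the 10 genes had an entry. The ETS-IRF composite was in 2 of these 8, Clec4a1 and Clec7a, beside 2.72% of all windows, and the C/EBP letters in 2, Clec4e and Clec12a, beside 10.8%. PU.1 letters were in 4 beside 13.6%, and the STAT6-type site in 3, Clec4a1, Clec5a and Clec7a, beside 6.95%. The Clec4a2 window overlapped no peak of any list. In the IRF8 control peaks of lectin genes the ETS-IRF composite was in 16.1%, beside 15.0% of that list.

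Other genes of the pathway were also counted. The 15 signalling genes, from the kinase Syk and the adaptors Card9, Fcer1g and Tyrobp to Nfkb1, had 57 C/EBPα peaks in control and 53 after IL-4, with 11 lost (19.3%, background 21.4%) and 9 gained (17.0%, background 22%). IRF8 had 89 and 92, with 16 lost (18.0%, background 21.4%) and 21 gained (22.8%, background 30.4%). JUNB had 13 and 3, with 10 lost (76.9%, background 64.2%) and 0 gained. Of those 10, 4 were at Vav3, an exchange factor downstream of SYK. Vav3 held 6 of the 13 JUNB control peaks, so it lost 4 of 6, beside 64.2% over all JUNB peaks. A further 30 C-type lectin genes, of which 7 had no peak, had more C/EBPα and IRF8 peaks after IL-4. Their C/EBPα peaks numbered 43 in control and 51 after IL-4, with 7 lost (16.3%, background 21.4%) and 16 gained (31.4%, background 22%). Their IRF8 peaks numbered 48 and 62, with 8 lost (16.7%, background 21.4%) and 22 gained (35.5%, background 30.4%), and their JUNB peaks 5 and 3, with 3 lost and 1 gained. Mrc1, which encodes the mannose receptor and marks alternatively activated macrophages, had 3 of 6 C/EBPα control peaks lost and 5 of 8 IL-4 peaks gained. None of its C/EBPα peaks scored above 22.4. At Mgl2, of the same 30 genes, 0 of 3 C/EBPα control peaks were lost and 1 of 4 IL-4 peaks was gained. A link of these changes to the alternative state was not tested.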

How the data were processed

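ChIP-seq was performed on BMDMs with antibodies against C/EBPα (sc-61X), IRF8 (sc-32528x) and JUNB (sc-46x) after DSG and formaldehyde crosslinking, with 1 sample per factor and condition. Libraries were made with an Ovation or a TruSeq kit, and which kit served which sample is not given in the sources used here. Per the submitters' processing notes, BWA 0.7.10, SAMtools 0.1.19, MACS2 2.0.10 and HOMER 4.2 were used with mm10. The authors called peaks per sample and deposited 1 HOMER-annotated list each. The peak score that the authors deposited, written by the peak caller, has no stated unit and was read from its values as significance on the −log10 scale (−log10 p or q). The control library and read numbers are not given in the sources used here, so depth is unknown and the precision it gives cannot be stated.

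Peaks whose deposited gene name was a member were taken from each list. Overlaps were computed against the whole list of the other condition (at least 1 bp). For scores, each shared peak had 1 partner, chosen by the largest overlap, and a score change was called at 1.5 times. The 6 lists were merged where peaks overlapped, and a region took the highest score per list, so 1 gained C/EBPα peak upstream of Clec5a shares a region with a kept peak, and 2 C/EBPα control peaks at the Clec4a2 promoter overlap 1 IL-4 peak. Intervals are Wilson intervals for counting error. No test was run, since no group has a replicate. The members, lists and motifs were chosen with earlier results of these data known. Given in full were every Clec4d region, the strongest region of each member, regions where more than 1 factor had a peak in only 1 condition, regions with all 3 factors, and promoter peaks. Older symbols (Emr1 for Adgre1, Sfpi1 for Spi1) were matched through RefSeq. Coordinates are mm10 as deposited, with a start uncertainty of 1 bp, and 0 peaks ended past a chromosome of GRCm38. Gene positions are GENCODE. The TSS that HOMER used for Clec4a2, Clec10a and Clec12a lies inside the GENCODE gene. Alternatives changed the overlap rule, score threshold, list length, distance, gene assignment and score scaling. Scripts were tested on simulated data and ran under pysam 0.24.0, pandas 2.3.3, numpy 2.4.6, scipy 1.17.1, matplotlib 3.10.9 and Python 3.11.15.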

Additional observations from a re-analysis of the deposited data

Results flagged for a closer look

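At 4 lectin gene regions 2 factors moved in opposite directions after IL-4, by the highest score of each list in the region: each past 1.5 times, or by having a peak in only 1 condition. With 1 sample per group these differences were not tested. The share of all regions that meet this rule was not counted, so the 4 are not shown to be unusual. Over all shared peaks, 17.7% of C/EBPα scores and 23.6% of IRF8 scores rose at least 1.5 times. As large a fall was found for 17.8% and 17.5%. At 1.8 kb upstream of Clec4d the C/EBPα score ratio of IL-4 to control was 0.417 and that of IRF8 2.09, and the JUNB control peak of 6.53 was lost. At the Clec4n intron 3 region the ratio was 1.72 for C/EBPα and 0.478 for JUNB. At the Clec7a promoter it was 0.552 for C/EBPα and 1.54 for IRF8. At 5.7 kb upstream of Clec12a the C/EBPα control peak of 7.78 was lost and an IRF8 peak of 5.20 was gained. The region 9.2 kb upstream of Clec5a is not among the 4, since C/EBPα had a peak there in both conditions, but it gained a further C/EBPα peak of 3.35 and lost a JUNB peak of 10.8.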

How the results depend on the processing

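No paired analysis was possible because each factor and condition has 1 sample. Of 87 values recomputed under the alternatives, 78 stayed within their limits (1.5 times for a count) and 9 moved, and no C/EBPα value was among those 9. The 87 include 18 values with peaks limited to 100000 bp from the TSS. Those 18 could not move, since no lectin peak lay farther than 27.2 kb from a TSS. IRF8 peaks gained were 5 in place of 3 under a reciprocal overlap of 50%, with scores of at least 5, and with peaks taken within 10000 bp of the gene body, where IRF8 peaks lost were 3 in place of 5. JUNB peaks gained, 1 as reported, were 2 under the reciprocal overlap, 0 with scores of at least 5 and 2 with both lists of equal length. At equal length JUNB control peaks were 5 in place of 8 and lost peaks 1 in place of 3. The JUNB median log2 score ratio ranged from -1.16 to -0.48, and the IRF8 totals, 31 and 29 as reported, were 28 and 28 with scores of at least 5 and 33 and 35 near the gene bodies. These alternatives act on few peaks. Depth, library kit and background of the samples of a factor cannot be told apart from IL-4, and JUNB, with the shortest lists, is limited most.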
